A study of Mus musculus with 8 samples.

Results

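Cystine uptake and glutathione synthesis were followed through 9 genes in mouse liver: Slc7a11, Slc3a2, Gclc, Gclm, Gss, Gsr, Ggt1, Cth and Cbs. They were taken by symbol from the named probes of the array, which gave 11 probes, and all 9 were among the 15834 genes tested. RNA of the whole liver of 8 mice was hybridised to 1-colour Agilent arrays, 1 array per mouse, in 4 groups of 2 mice. AKP::Keap1 females, AKP females, AKP::Keap1 males and AKP males all carried an activated oncogene and mutant p53 (R172H) expressed in the liver, and the AKP::Keap1 mice also carried a deletion of Keap1 there. No group without the oncogene and mutant p53 was analysed here. The promoter that drives the liver alleles, the strain and the age of the mice are not given in the sources used here.

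Cells take up cystine, the oxidised dimer of cysteine, through an exchanger that gives out glutamate; Slc7a11 is its transporting light chain and Slc3a2 the heavy chain that carries it to the cell surface. Cysteine can also be made inside the cell from homocysteine by Cbs and then Cth, the transsulfuration route, for which the liver is well known. Glutamate-cysteine ligase, built from the catalytic subunit Gclc and the modifier subunit Gclm, joins glutamate to cysteine in the rate-limiting step of glutathione synthesis, and Gss adds glycine. Gsr returns oxidised glutathione to its reduced form, and Ggt1, an enzyme of the cell surface, removes the glutamyl group from glutathione outside the cell. Keap1 marks the transcription factor Nrf2 (gene Nfe2l2) for degradation, and Nrf2 is known to drive several of these genes.

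The levels below are log2 of the processed signal minus the log2 75th percentile of the array, so 0 stands for a signal at that percentile; probes of different genes are not compared in level. Differences are AKP::Keap1 minus AKP on the log2 scale with the standard error of a limma fit over all 8 arrays, and "rose" or "fell" is used for a Benjamini-Hochberg adjusted p below 0.05 over all genes. Between 65.7% and 70.7% of spots per array were well above background and 0 were saturated, and the 2 arrays of a group correlated at 0.9895 to 0.9919 across genes. All 10 hepatocyte markers examined, such as Alb and Hnf4a, were well above background on every array. Each slide held 1 group and the sexes were scanned on 2 different days, so slide and group, and scan day and sex, cannot be told apart.

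Keap1, the deleted gene, had levels of -0.52 and -0.72 in AKP::Keap1 females, against 1.68 and 1.77 in AKP females, and -1.35 and -1.40 in AKP::Keap1 males, against 1.83 and 2.14 in AKP males. It was lower in every AKP::Keap1 liver, with a difference of -2.85 ± 0.11 (adjusted p = 0.00018), and it stayed well above background in all of them. In these whole livers, fewer cells of a type and less RNA per cell cannot be told apart.

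Over both sexes, 4 of the 9 genes rose in AKP::Keap1 livers (Slc7a11, Ggt1, Gclc and Gsr), Cbs fell, and Gclm, Gss, Slc3a2 and Cth were not called. Of all genes tested, 39.1% were called in this comparison, 21.8% higher and 17.2% lower. The median difference of the 9 genes was 0.43, beside 0.00 over all genes. Slc7a11 and Ggt1 passed the filter on dim probes only through the AKP::Keap1 arrays, where they were high. For these genes that median and the calls rest partly on signals that were not well above background.

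**Figure D1:**
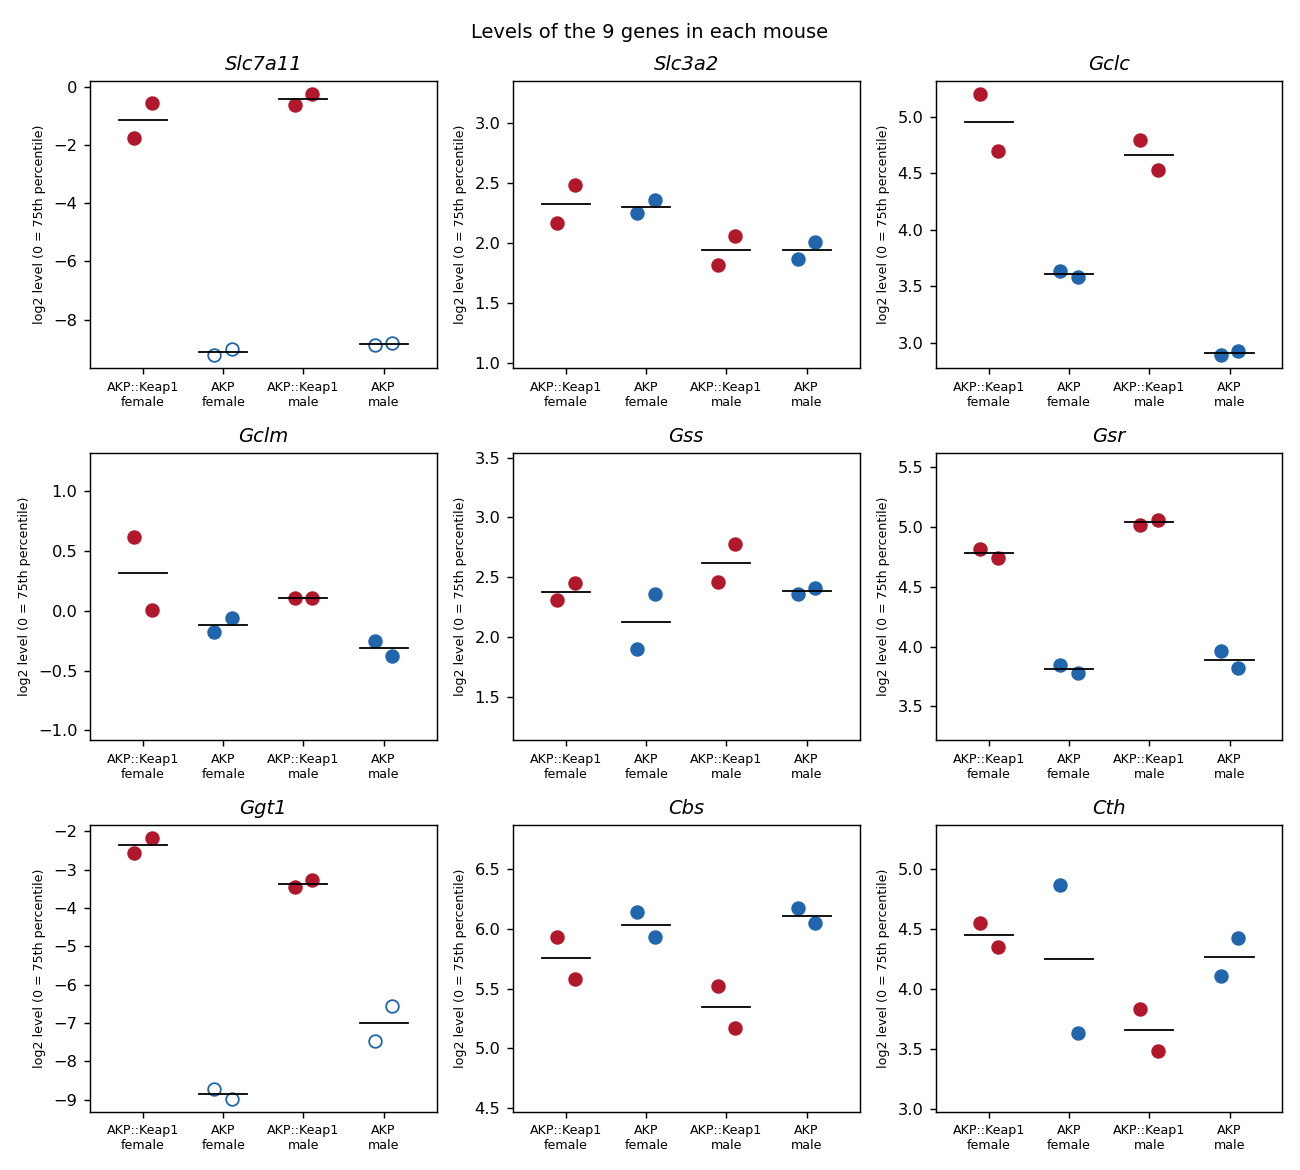
Level of each of the 9 genes (log2 of the processed signal relative to the 75th percentile of the array) in each of the 8 mice. AKP::Keap1 mice are red and AKP mice blue, each point is 1 mouse, lines are group means, the axis range differs between genes, and open circles are signals not well above background. Slc7a11 and Ggt1 were open in all 4 AKP mice and filled in all 4 AKP::Keap1 mice.

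The cystine carrier changed in its light chain and showed no called difference in its heavy chain. The bases before the start site of both genes are shown because the chains work as a pair and their differences were far apart; they are RefSeq promoter sequences of assembly GRCm38.p6, printed 5′ to 3′ on the gene's strand, with matches to the searched motifs in capitals. The motifs were TGACNNNGC, the core of the antioxidant response element that Nrf2 binds, and TGATGNAA, an amino acid response element bound by ATF4, both searched on both strands in windows that also held the 50 bases after the start site.
Slc7a11, chr3:50443614-50443863, minus strand: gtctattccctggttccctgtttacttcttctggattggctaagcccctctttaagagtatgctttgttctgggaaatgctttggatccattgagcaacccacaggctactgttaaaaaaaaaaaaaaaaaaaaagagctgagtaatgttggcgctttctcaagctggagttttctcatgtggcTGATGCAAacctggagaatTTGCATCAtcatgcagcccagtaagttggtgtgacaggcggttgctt
Slc3a2, chr19:8713898-8714147, minus strand: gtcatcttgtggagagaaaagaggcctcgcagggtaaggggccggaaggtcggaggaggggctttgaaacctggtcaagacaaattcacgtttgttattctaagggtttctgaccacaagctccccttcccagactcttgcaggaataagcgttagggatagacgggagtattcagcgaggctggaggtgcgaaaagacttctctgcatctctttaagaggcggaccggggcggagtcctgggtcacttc

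The Slc7a11 window held 2 matches to the amino acid response element, TGATGCAA beginning 66 bases and TTGCATCA, the same letters on the other strand, beginning 47 bases before the start site. Of 32851 promoter windows of this length, 3.97% held at least 1 such match and 23 windows (0.070%) held 2 or more. The antioxidant response core had 0 matches in the Slc7a11 window, and the Slc3a2 window held neither motif; 12.4% of all windows held at least 1 antioxidant response core. A match is a string of letters and not a measured binding site.

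Slc7a11 (probe A_52_P368057, NM_011990) gave processed signals of 304 and 858 in AKP::Keap1 females, against 1.82 and 2.0 in AKP females. In males the signals were 989 and 1219 in AKP::Keap1 livers, against 2.07 and 2.60 in AKP livers. The probe was well above background in all 4 AKP::Keap1 livers and in none of the 4 AKP livers, so its level in AKP livers is only bounded. The lowest signal well above background on each AKP array lay between 8.73 and 12.65. Against it, Slc7a11 was at least 60.9-fold higher in AKP::Keap1 livers, at least 53.9-fold in females and at least 68.9-fold in males. The limma adjusted p-values were 0.00010 over both sexes, 0.00089 in females and 0.00051 in males. They belong to the fitted differences, which use the dim AKP signals, and do not test these bounds. Under normexp correction, whose offset of 50 raises low signals by construction, the log2 difference was 3.36 for Slc7a11 and the call held.

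Slc3a2 (probe A_51_P472901) had levels of 2.17 and 2.49 in AKP::Keap1 females, against 2.25 and 2.36 in AKP females, and of 1.82 and 2.06 in AKP::Keap1 males, against 1.87 and 2.01 in AKP males. The genotypes overlapped within each sex. The difference was 0.01 ± 0.11 (adjusted p = 0.95), with a 95% confidence interval from -0.27 to 0.29, and its sign was negative with arrays shifted to their medians (-0.24) or with normexp background correction (-0.04).

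Slc3a2 also pairs with other light chains, of which 4 of 5 listed were tested. Of these 1 rose and 0 fell, where 21.8% of all genes rose and 17.2% fell. The riser was Slc7a6, a carrier of cationic and neutral amino acids, at 2.48 ± 0.20 (adjusted p = 0.0011), but it was well above background on only 1 of the 4 AKP arrays and had a difference of 0.09 (adjusted p = 0.53) under normexp correction. Slc7a5, the large neutral amino acid carrier, differed by 0.12 ± 0.21 (adjusted p = 0.67). Among the other carriers of cystine, cysteine and glutamate, 2 of 8 tested rose, 3 fell, and the median was -0.32; with the median shift 1 rose and 5 fell, and without scaling 2 rose and 1 fell.

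Slc1a1, a glutamate carrier that also takes up cysteine, resembled Slc7a11 in that it was well above background on all 4 AKP::Keap1 arrays and on 0 of the 4 AKP arrays. Like Slc7a11, it passed the filter on dim probes only through the AKP::Keap1 arrays, where it was high. It was at least 36.4-fold higher in AKP::Keap1 females, at least 10.7-fold higher in AKP::Keap1 males and at least 19.8-fold higher over both sexes. The limma adjusted p of 0.00018 over both sexes belongs to the fitted difference, which uses the dim AKP signals, and does not test the bounds. Slc1a5, a neutral amino acid carrier for glutamine, rose by 0.66 ± 0.17 (adjusted p = 0.025), or 0.41 (adjusted p = 0.082) with arrays shifted to their medians. Slc3a1, the heavy chain of another cystine carrier, had a difference of -1.54 ± 0.32 (adjusted p = 0.013), and Slc1a2, a glutamate carrier, one of -1.40 ± 0.31 (adjusted p = 0.016), which is -1.09 (adjusted p = 0.053) without scaling between arrays. Ctns, which exports cystine from lysosomes, had a difference of -0.26 ± 0.08 (adjusted p = 0.036) that turned to 0.05 without scaling.

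**Figure D2:**
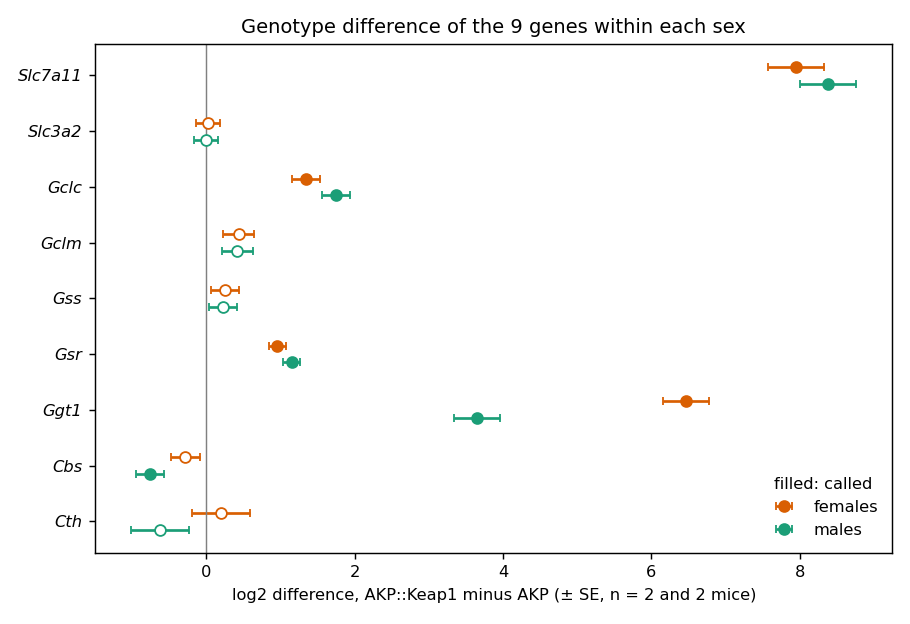
Genotype difference of each of the 9 genes (AKP::Keap1 minus AKP, log2 scale) in females (orange) and in males (green), with bars of 1 standard error of the limma fit and filled points for called differences. For Slc7a11 and Ggt1 the plotted values include AKP signals not well above background and are not measured sizes. Slc7a11, Gclc, Gsr and Ggt1 were called in both sexes, and Cbs in males.

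Of the enzymes that make glutathione, the catalytic subunit of the ligase rose and the other parts were not called. Gclc (probe A_51_P365019) had levels of 5.20 and 4.70 in AKP::Keap1 females, against 3.63 and 3.58 in AKP females. In males its levels were 4.79 and 4.53 in AKP::Keap1 livers, against 2.89 and 2.93 in AKP livers. All 4 AKP::Keap1 livers were above all 4 AKP livers, as for 15.5% of all genes tested.

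Gclc rose by 1.55 ± 0.13 (2.92-fold, adjusted p = 0.0012) over both sexes. By group means the order was AKP::Keap1 females (4.95), AKP::Keap1 males (4.66), AKP females (3.60) and AKP males (2.91), and the values of the first and the second of these groups overlapped. It rose 2.54-fold in females (1.34 ± 0.19, adjusted p = 0.0088) and 3.36-fold in males (1.75 ± 0.19, adjusted p = 0.0037). Without AKP female replicate 2 the female difference was 1.32 with an adjusted p of 0.053. In all, 790 genes had a higher genotype difference than Gclc.

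Gclm, the modifier subunit, is shown with its promoter because it pairs with Gclc and its groups separated without a call. The window held 1 match to the antioxidant response core, GCACCGTCA beginning 134 bases before the start site (TGACGGTGC on the other strand), again in capitals.
Gclm, chr3:122245307-122245556, plus strand: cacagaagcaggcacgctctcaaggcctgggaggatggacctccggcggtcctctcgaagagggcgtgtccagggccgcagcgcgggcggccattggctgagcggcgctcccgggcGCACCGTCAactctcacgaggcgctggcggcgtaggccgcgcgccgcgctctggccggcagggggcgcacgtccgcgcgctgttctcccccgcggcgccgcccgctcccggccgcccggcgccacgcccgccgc

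Gclm (probe A_51_P320089) had levels of 0.62 and 0.01 in AKP::Keap1 females, against -0.18 and -0.06 in AKP females, and of 0.11 and 0.11 in AKP::Keap1 males, against -0.25 and -0.38 in AKP males. Every AKP::Keap1 liver was above every AKP liver, as for 15.5% of all genes tested. AKP::Keap1 female replicate 2 was, however, close to the highest AKP female. The difference was 0.43 ± 0.15 (1.35-fold, 95% interval 0.07 to 0.79) and missed the threshold at an adjusted p of 0.062. Gclm was called under 4 of 19 alternatives, among them without AKP::Keap1 female replicate 2 (0.58, adjusted p = 0.013).

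Gss (probe A_52_P358860) had levels of 2.31 and 2.45 in AKP::Keap1 females, against 1.90 and 2.36 in AKP females, and of 2.46 and 2.78 in AKP::Keap1 males, against 2.36 and 2.41 in AKP males. The groups overlapped, and the difference of 0.24 ± 0.14 was not called (adjusted p = 0.20, 95% interval -0.09 to 0.58). RefSeq promoter windows were matched for 6 of the 9 genes, 9 windows in all. The Gss and Cbs windows held neither motif, and 3 of the 4 Ggt1 windows held 1 antioxidant response core each; Gclc, Gsr and Cth were not matched.

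Gsr, the reductase that recycles glutathione, was measured by both of its probes with the same direction. The brighter one (A_55_P1966982) had levels of 4.82 and 4.74 in AKP::Keap1 females, against 3.85 and 3.78 in AKP females, and of 5.02 and 5.06 in AKP::Keap1 males, against 3.96 and 3.82 in AKP males. All AKP::Keap1 livers were above all AKP livers, as for 15.5% of all genes tested. Gsr rose by 1.06 ± 0.08 (2.08-fold, adjusted p = 0.00091), by 0.96 ± 0.12 in females (adjusted p = 0.0061) and by 1.15 ± 0.12 in males (adjusted p = 0.0030).

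The other Gsr probe (A_55_P2103055) had levels of 2.68 and 2.54 in AKP::Keap1 females, against 1.78 and 1.71 in AKP females, and of 2.70 and 2.77 in AKP::Keap1 males, against 1.80 and 1.65 in AKP males. Its groups did not overlap either. Its difference was 0.94 ± 0.09 (adjusted p = 0.0012 over 20557 probes, 40.9% of which were called).

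Ggt1 (probe A_51_P468073), the surface enzyme that opens glutathione, gave signals of 174 and 280 in AKP::Keap1 females, against 2.57 and 2.05 in AKP females. In males the signals were 139 and 152 in AKP::Keap1 livers, against 5.51 and 12.1 in AKP livers. As for Slc7a11, the probe was well above background in all 4 AKP::Keap1 livers and in none of the AKP livers. Ggt1 was at least 14.6-fold higher in AKP::Keap1 livers, at least 23.3-fold in females and at least 9.13-fold in males. The limma adjusted p-values were 0.00022 over both sexes, 0.00092 in females and 0.0019 in males. They too belong to fitted differences that use the dim AKP signals and do not test the bounds. Under normexp correction the log2 difference of Ggt1 was 1.45 and the call held.

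Of the transsulfuration enzymes, Cbs fell and Cth was not called. Cbs (probe A_55_P2078670) had levels of 5.93 and 5.58 in AKP::Keap1 females, against 6.14 and 5.93 in AKP females, and of 5.52 and 5.17 in AKP::Keap1 males, against 6.17 and 6.05 in AKP males. The male groups were apart, whereas the female groups met at 5.93. The difference of Cbs was -0.52 ± 0.13, 1.43-fold lower in AKP::Keap1 livers (adjusted p = 0.025). In males it was -0.76 ± 0.19 (adjusted p = 0.031) and in females -0.28 ± 0.19 (adjusted p = 0.33).

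The male call of Cbs was lost under 6 of 19 alternatives, with quantile normalization (-0.48, adjusted p = 0.092), without scaling (-0.26, adjusted p = 0.33) and without any 1 of the 4 male livers (-0.94 to -0.59, adjusted p from 0.057 to 0.14). The call over both sexes was lost under 7 of 19 alternatives. Without scaling between arrays that difference was -0.21 (adjusted p = 0.26), and with slide as a random block it was -0.52 with an adjusted p of 0.087. It was also lost without AKP male replicate 1 (adjusted p = 0.072) or 2 (adjusted p = 0.054), AKP::Keap1 male replicate 2 (adjusted p = 0.076), AKP female replicate 1 (adjusted p = 0.069) or AKP::Keap1 female replicate 2 (adjusted p = 0.066).

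Cth (probe A_51_P431737), which releases cysteine from cystathionine, had levels of 4.55 and 4.35 in AKP::Keap1 females, against 4.87 and 3.63 in AKP females, and of 3.83 and 3.48 in AKP::Keap1 males, against 4.11 and 4.43 in AKP males. The AKP females enclosed both AKP::Keap1 females, while both AKP::Keap1 males were below both AKP males. The difference was -0.21 ± 0.28 (adjusted p = 0.58), and it was 0.10 without scaling between arrays or without AKP female replicate 1. The other Cth probe (A_55_P1959923) gave -0.27 ± 0.28 (adjusted p = 0.47 over the probes).

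The steps before and after cysteine were examined in the same comparison, where 21.8% of all genes tested rose and 17.2% fell. In the methionine cycle, which supplies homocysteine to Cbs, 0 of 11 genes rose and 2 fell, with a median of -0.20. These were Ahcy, which releases homocysteine, at -0.84 ± 0.18 (adjusted p = 0.013), and Mat1a, the liver enzyme that makes S-adenosylmethionine, at -0.69 ± 0.14 (adjusted p = 0.011). Of 9 tested genes of cysteine breakdown, 0 rose and 4 fell, with a median of -0.27. Tst, a sulfurtransferase, fell by 0.56 ± 0.09 (adjusted p = 0.0052), and Cdo1, which oxidises cysteine, fell by 0.66 ± 0.12 (adjusted p = 0.0075). Suox, the sulfite oxidase, differed by -0.51 ± 0.15 (adjusted p = 0.040) and Mpst by -0.27 ± 0.08 (adjusted p = 0.046). With quantile normalization Suox was at -0.42 (adjusted p = 0.080) and Mpst at -0.17 (adjusted p = 0.13). Without scaling Mpst was at 0.04 (adjusted p = 0.77). The Mpst difference was -0.77 ± 0.12 in males (adjusted p = 0.0093) and 0.23 ± 0.12 in females (adjusted p = 0.20). Without scaling between arrays, which moves the median of all genes to 0.31, 0 genes of either list fell, 2 of cysteine breakdown rose, and the list medians were 0.11 for the methionine cycle and 0.04 for cysteine breakdown. With arrays shifted to their medians, which moves the median of all genes to -0.25, 9 of 11 methionine cycle genes and 6 of 9 of cysteine breakdown fell.

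Where 21.8% of all genes rose and 17.2% fell, 2 of 12 tested genes of glutathione breakdown other than Ggt1 rose and 1 fell. Their median was 0.01. The number that fell was 4 with the median shift, 6 with normexp and 0 without scaling, where 3 rose. Ggt6, a gamma-glutamyltransferase relative, rose by 1.10 ± 0.28 (adjusted p = 0.025). Ggt7, another relative, had a difference of 1.07 ± 0.16 (adjusted p = 0.0044), which was -0.05 (adjusted p = 0.70) under normexp correction. Chac2, which splits glutathione inside the cell, fell by 0.52 ± 0.12 (adjusted p = 0.018), a difference of -0.21 (adjusted p = 0.24) without scaling.

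Genes of glutathione transport had a median of 0.60, with 4 of 7 rising and 1 falling, beside 21.8% and 17.2% of all genes. Abcc4, an export pump whose substrates include glutathione, had mean levels of 3.23 ± 0.42 in AKP::Keap1 females and -1.48 ± 0.02 in AKP females, and of 2.85 ± 0.14 in AKP::Keap1 males and -2.31 ± 0.10 in AKP males (SD, n = 2 each). Its difference was 4.94 ± 0.15 (adjusted p = 7.9e-05), with no overlap of genotypes, as for 15.5% of all genes tested. Abcc5 rose by 1.82 ± 0.12 (adjusted p = 0.00049) and Abcc2, the canalicular pump, by 0.60 ± 0.07 (adjusted p = 0.0028). The fourth riser was Abcc1, at 1.82 ± 0.27 (adjusted p = 0.0044). Slc25a39, which brings glutathione into mitochondria, had a difference of -0.33 ± 0.10 (adjusted p = 0.045), against -0.02 (adjusted p = 0.89) without scaling.

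For glutamate and glycine, the other building blocks of glutathione, 4 of 7 genes fell (median -0.51), beside 17.2% of all genes. Gls2, the liver-type glutaminase, had a difference of -0.61 ± 0.16 (adjusted p = 0.028). Shmt1, which makes glycine from serine, fell by 0.78 ± 0.10 (adjusted p = 0.0028). Without scaling, 1 gene of this list fell.

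**Figure D3:**
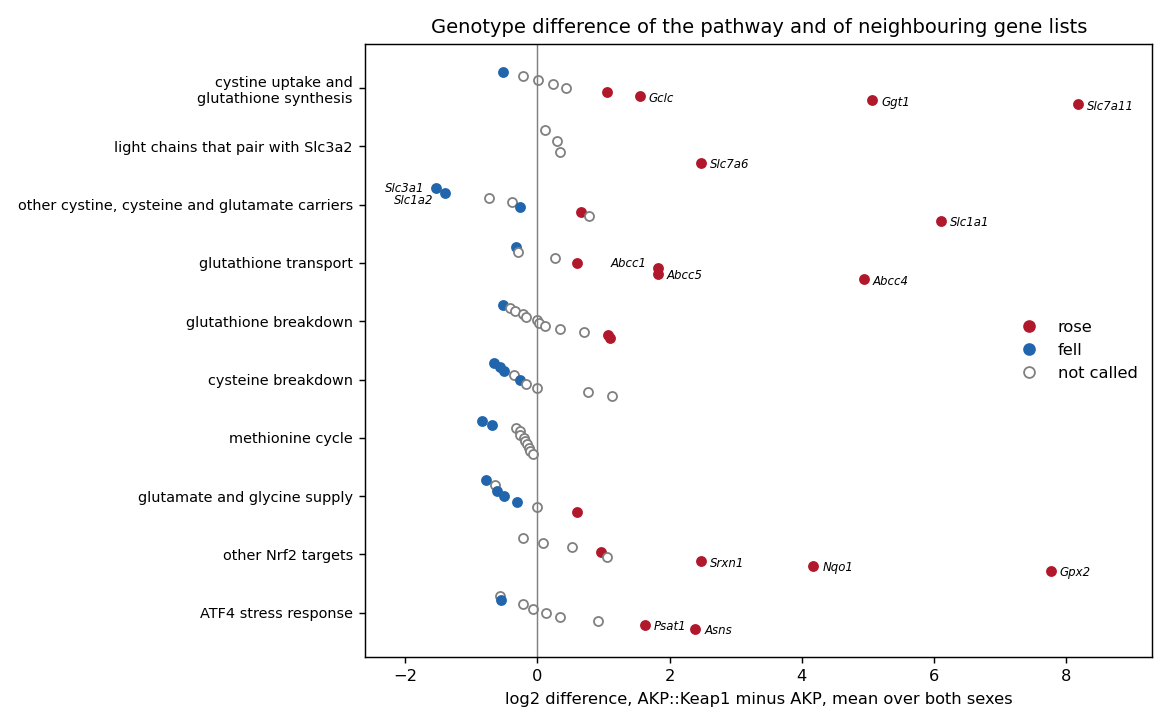
Genotype difference (AKP::Keap1 minus AKP, log2 scale, mean over both sexes) of each tested gene of the pathway and of the lists around it, 1 point per gene. Red points rose, blue points fell and open points were not called at an adjusted p of 0.05. The values of Slc7a11, Ggt1, Slc1a1, Slc7a6, Slc1a3, Dpep2 and Mfsd12 include AKP signals not well above background. Those of Dpep2 and Mfsd12 also include such AKP::Keap1 signals. Abcc4 at 4.94 and Gpx2 at 7.76 lay far to the right of the other genes of their lists.

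Other known targets of Nrf2 were set beside the pathway. Of 8 such genes, 4 rose and 0 fell, with a median of 1.0, where 21.8% of all genes rose and 17.2% fell. With quantile normalization 6 rose, with normexp 6 and without scaling 7. Gpx2, a glutathione peroxidase, had a difference of 7.76 ± 0.13 (adjusted p = 6.3e-06), Srxn1, the sulfiredoxin, one of 2.47 ± 0.11 (adjusted p = 0.00023) and Nqo1, a quinone reductase, one of 4.17 ± 0.22 (adjusted p = 0.00032). The fourth was Txnrd1, the cytosolic thioredoxin reductase, at 0.96 ± 0.11 (adjusted p = 0.0022), while Hmox1, the inducible haem oxygenase, differed by -0.22 ± 0.23 (adjusted p = 0.47). The transcript of Nrf2 itself, Nfe2l2, had a difference of -0.40 ± 0.10 (adjusted p = 0.024), which was -0.09 (adjusted p = 0.68) without scaling.

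ATF4 is a second factor known to drive Slc7a11, during amino acid shortage and stress. Of 9 genes of its response, 2 rose and 1 fell, with a median of 0.13, where 21.8% of all genes rose and 17.2% fell. Asns, the asparagine synthetase, had a difference of 2.39 ± 0.54 (adjusted p = 0.016) and Psat1, of serine synthesis, one of 1.62 ± 0.47 (adjusted p = 0.038). Ddit3, a stress-induced transcription factor, had one of -0.55 ± 0.16 (adjusted p = 0.036), and Atf4 itself one of -0.06 ± 0.08 (adjusted p = 0.58). Without scaling Ddit3 was at -0.24 (adjusted p = 0.18), and 3 genes of the list rose and 0 fell; with the median shift 2 rose and 3 fell. Asns replicates were wide apart, at 2.31 and 4.24 in AKP::Keap1 males, against -0.43 and 1.26 in AKP males. Within males 2 of the 9 genes rose and 1 fell, and within females 0 rose and 0 fell. Ddit3 differed by -1.09 ± 0.22 in males (adjusted p = 0.019) and by -0.01 ± 0.22 in females (adjusted p = 0.98). The interaction with sex was called for 0 of the 9.

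Markers of other cell types moved with the genotype, in the comparison where 21.8% of all genes rose and 17.2% fell. Of 9 bile duct markers, 7 rose and 0 fell; their summed linear level, with the 75th percentile of an array set to 1, was 37.4 to 81.1 in AKP::Keap1 females, against 3.55 to 9.56 in AKP females. In males this sum was 72.4 to 83.9 in AKP::Keap1 livers, against 8.20 to 9.37 in AKP livers. All 9 were well above background on every array, so no defining marker such as Krt19 or Epcam was absent in any liver.

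All 4 tested neutrophil markers rose, beside 21.8% of all genes, and 3 did under normexp correction. Their summed level was 28.9 to 30.7 in AKP::Keap1 females, against 5.27 to 7.85 in AKP females. In males it was 31.0 to 38.9 in AKP::Keap1 livers, against 4.43 to 5.78 in AKP livers. Cxcr2 was well above background on 2 of the 4 AKP arrays, and its difference of 1.73 ± 0.23 was 0.15 (adjusted p = 0.27) under normexp correction. Where 17.2% of all genes fell, 0 of 10 hepatocyte markers rose and 6 fell. Of these markers 2 fell without scaling between arrays, 3 with quantile normalization and 10 with the median shift. Their sum was 1185 to 1530 in AKP::Keap1 females, against 1503 to 1683 in AKP females, and 1326 to 1393 in AKP::Keap1 males, against 1940 to 2244 in AKP males. The part of these cell types in the differences of Slc7a11, Ggt1, Gclc, Gsr and Cbs was not tested.

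**Figure D4:**
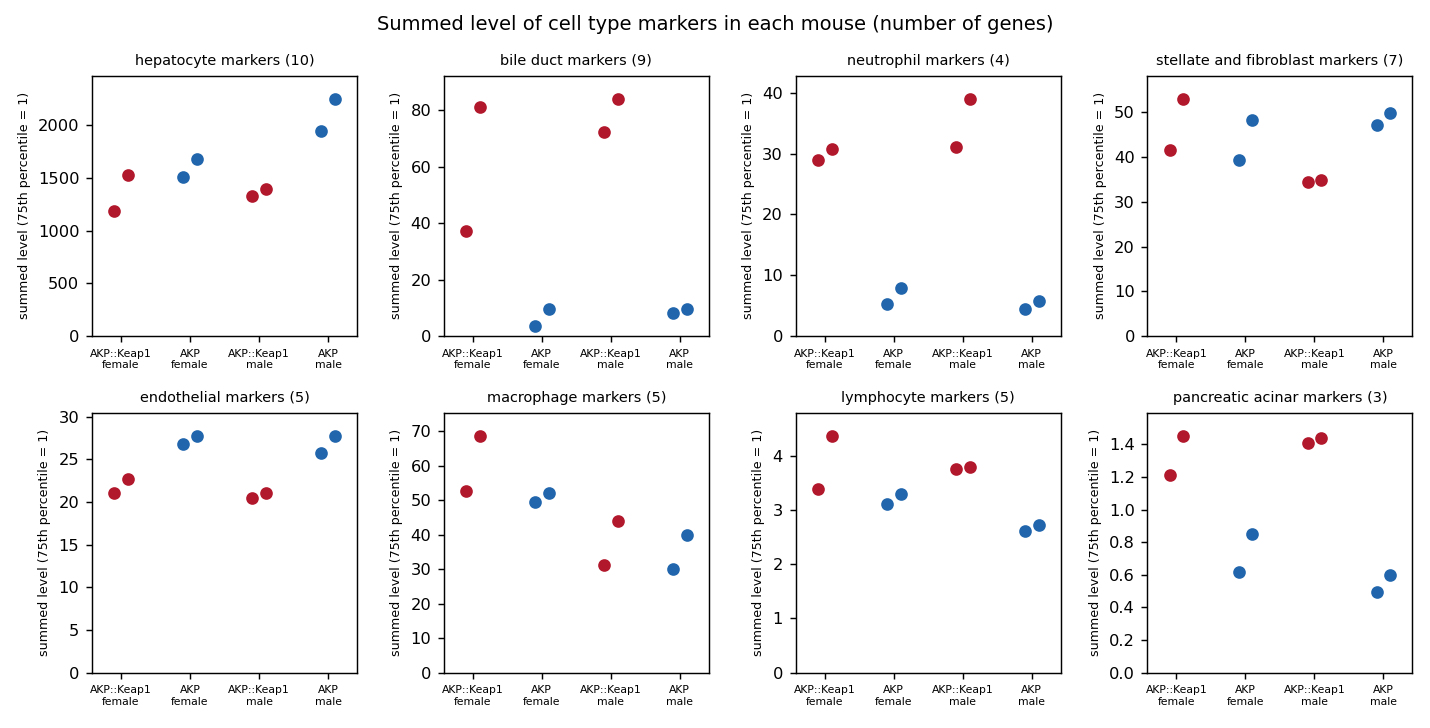
Summed linear level of the markers of 8 cell types (vertical axes from 0, with the signal at the 75th percentile of an array set to 1) in each mouse, AKP::Keap1 mice in red and AKP mice in blue. The bile duct, neutrophil, lymphocyte and pancreatic acinar sums of all 4 AKP::Keap1 mice lie above those of all 4 AKP mice, and the endothelial sums lie below. The hepatocyte, macrophage, and stellate and fibroblast sums overlap between genotypes. Most of the macrophage sum is Csf1r and most of the stellate and fibroblast sum is Dcn, so these sums say little of the other markers. Most of the bile duct sum is Spp1, and of the 3 pancreatic acinar markers only Cela1 rose.

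Of 7 stellate and fibroblast markers 3 rose and 2 fell, and of 5 macrophage markers 2 rose and 0 fell. Col1a1 rose by 1.53 ± 0.19 (adjusted p = 0.0027) and Acta2 by 1.45 ± 0.18 (adjusted p = 0.0028). Col3a1 rose by 1.22 ± 0.10 (adjusted p = 0.0011). Reln differed by -1.33 ± 0.20 (adjusted p = 0.0045). Dcn differed by -0.40 ± 0.12 (adjusted p = 0.045), or -0.30 (adjusted p = 0.15) with quantile normalization. Trem2 rose by 2.61 ± 0.32 (adjusted p = 0.0026) and Ccr2 by 1.57 ± 0.17 (adjusted p = 0.0021). In this comparison 21.8% of all genes rose and 17.2% fell. Of 5 endothelial markers 0 rose and 4 fell, but 0 fell without scaling between arrays and 5 with arrays shifted to their medians. Of 5 lymphocyte markers 2 rose and 0 fell, with 4 rising without scaling and 1 under normexp correction. Of 3 tested pancreatic acinar markers 1 rose and 0 fell. The riser was Cela1, at 3.55 ± 0.23 (adjusted p = 0.00051). Ctrb1 differed by 0.03 ± 0.14 (adjusted p = 0.86) and Cela2a by -0.44 ± 0.52 (adjusted p = 0.52).

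Within each sex, the same 4 genes rose: Slc7a11, Ggt1, Gclc and Gsr. For Slc7a11 and Ggt1 the AKP signals were not well above background in either sex. Rises in both sexes were found for 7.70% of all genes. In females 4 of the 9 genes rose and 0 fell, where 12.3% of all genes rose and 9.10% fell. In males 4 rose and Cbs fell, where 16.7% of all genes rose and 11.5% fell.

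The interaction of genotype with sex, which subtracts the male difference from that of females, was called for 1 of the 9 genes, Ggt1, and for 1.72% of all genes. Ggt1 was not well above background in any AKP liver of either sex, so its fitted value of 2.83 ± 0.44 (adjusted p = 0.046) is no measured difference between the sexes, and the call was lost under 11 of 17 alternatives. With such signals raised to the lowest signal well above background on their array, an alternative chosen after seeing the data, it was 1.35 (adjusted p = 0.047). The same limit holds for Slc7a11, at -0.43 ± 0.53 (adjusted p = 0.67). For Gclc the interaction was -0.40 ± 0.27 (adjusted p = 0.42), for Gsr -0.19 ± 0.16 (adjusted p = 0.52), for Cbs 0.49 ± 0.27 (adjusted p = 0.32) and for Cth 0.82 ± 0.56 (adjusted p = 0.42). The male call for Cbs is therefore not shown to differ from its female difference.

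Between the sexes, averaged over genotypes, Gclc was the only one of the 9 genes called, beside 21.1% of all genes. It was 1.41-fold higher in females than in males (0.49 ± 0.13, adjusted p = 0.049), although all AKP::Keap1 males were above all AKP females. The call was lost under 12 of 19 alternatives, 7 of which left out 1 liver. Slc3a2 was higher in every female than in every male liver, as were 6.01% of all genes, by 0.38 ± 0.11 (95% interval 0.10 to 0.65), but was not called (adjusted p = 0.064). Slc7a11 differed between females and males by -0.50 ± 0.27 (adjusted p = 0.22).

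For members called by genotype and well above background on all arrays, the genes with the most similar profile over the 8 arrays were sought among 13509 candidates, by the root mean square difference of log2 levels centred on each gene's mean. Closest to Gclc were Alox12b (0.12), Arhgap11a (0.15) and Arhgap1 (0.16). Closest to Gsr were Slc35g3 (0.05), Rdh12 (0.09) and Tpsb2 (0.09), and closest to Cbs were Prodh2 (0.07), Aldh8a1 (0.08) and Il11ra1 (0.09).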

How the data were processed

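Total RNA of whole livers, 500 ng per mouse, was labelled with Cy3, per the labels' protocols. Each deposited scanner file gives a linear intensity for every spot; per the file headers it was made with Feature Extraction 10.7.3.1 and names build mm9, while the submitters' processing notes give version 10.1. The deposited series matrix equals the processed signal in 355176 of 355176 values (relative difference up to 1e-06), so it is linear, not centred and not scaled between arrays; its column medians were 78.8 and 94.8 in AKP::Keap1 females, 74.9 and 70.5 in AKP females, 117 and 112 in AKP::Keap1 males and 57.2 and 67.1 in AKP males.

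Control spots and outlier flags were left out. Probes were named through RefSeq accessions (GRCm38.p6): 26055 of 39429 had 1 symbol and 13374 none. No probe coordinates are given, as the builds differ. Processed signals were taken to log2 and the 75th percentile of the array was subtracted. Probes that cleared background on fewer than 2 of the 8 arrays were left out, and a gene was read from its brightest probe. A group means model was fitted with limma 3.58.1 in R 4.3.3, two-sided, with Benjamini-Hochberg adjustment, and was tested on simulated data. n is 2 mice per group, and that number limits the precision. The labels number the mice but do not say that litters were separate.

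The 9 genes were always named, and of each list up to 3 rising and 3 falling genes with the smallest adjusted p, up to 2 where none was called, and others that explain a count; a gene that meets this rule is not reported here. The genes and lists were chosen with earlier results of these data known. "At least N-fold" compares the bright group's mean with the dim group's, each dim value raised to the lowest signal well above background on its array. Alternatives changed the scaling, background, filter, probe choice, variance model, blocks and arrays. Normexp (offset 50) was run on median spot signals in place of the planned mean spot signals.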

Additional observations from a re-analysis of the deposited data

Results flagged for a closer look

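Ggt1, the surface enzyme that opens glutathione, had a fitted interaction of genotype with sex of 2.83 ± 0.44 (log2, female difference less male difference, limma adjusted p = 0.046). None of the 4 AKP signals was well above background, so the AKP levels are not measured and the value is no measured difference between the sexes. The bounds of at least 23.3-fold in females and at least 9.13-fold in males do not order the sexes either. The call was lost under 11 of 17 alternatives, and over all 17 the values ran from 1.35 to 3.28.

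Mpst, a sulfurtransferase of cysteine breakdown, had a genotype difference that was higher by 1.0 ± 0.17 in females than in males by the interaction term (adjusted p = 0.049). Its mean level was 3.39 ± 0.09 in AKP::Keap1 females and 3.16 ± 0.09 in AKP females, and 3.34 ± 0.05 in AKP::Keap1 males and 4.11 ± 0.03 in AKP males (SD, n = 2 each). It fell in males (-0.77 ± 0.12, adjusted p = 0.0093) and was not called in females (0.23 ± 0.12, adjusted p = 0.20). Alternatives for the interaction of Mpst were not examined. Over all genes, 272 interactions were called, but 160 with quantile normalization and 59 with a replicate block. Slide and group cannot be told apart for Ggt1 or for Mpst.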

How the results depend on the processing

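Of 836 recomputed differences of the 9 genes over the 5 comparisons, 752 kept their direction and their side of the threshold, 37 were no longer called, 12 were newly called and 35 changed sign, 0 of them called by limma after the change. The genotype calls of Gclc and Gsr held under 19 of 19 alternatives. Those of Slc7a11 and Ggt1 held under 18 of 18, but both genes passed the filter only through the AKP::Keap1 arrays, where they were high. Their AKP signals were not well above background in any of these fits, so that count is no separate support for the calls. Slc7a11 ranged from 3.36 to 8.48, Ggt1 from 1.45 to 5.37, Gclc from 1.30 to 1.86 and Gsr from 0.81 to 1.37. Causes were not tested, except that requiring a signal on all 8 arrays removes Slc7a11 and Ggt1. That filter left 3 of the 9 genes called in males and 2 in females, 421 interaction calls over all genes and 0 of the 9 there.

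Over all genes, calls numbered 3310 by genotype and 326 by sex with slide as a random block, 8232 in males with arrays shifted to their medians, and 1230 in females from the female arrays alone. As each slide held 1 group, the slide block fit had no interaction term and cannot tell slide from interaction. Interaction calls numbered 160 with quantile normalization, 1189 with the median shift, 460 without scaling, 118 without the filter and 541 with the trend and robust variance model. Of the 9 genes, 0 had a called interaction with quantile normalization (3 at an unadjusted p below 0.05), without scaling (3) or without the filter (1). By sex, 0 of the 9 were called with the median shift (3 unadjusted), without scaling (2), without the filter (2) or with the slide block (2), and 2 with the trend and robust model. Genotype calls, 3456 higher and 2729 lower as reported, split into 2372 higher and 6372 lower with the median shift, 5703 and 646 without scaling, 2956 and 2848 with quantile normalization, and 2176 and 3954 with normexp. The median of all genes then moved to -0.25, 0.31, -0.02 and -0.13.

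Leaving out 1 liver at a time gave 4132 to 5459 genotype calls (4 to 5 of the 9 genes), 1033 to 4289 in males (4 to 5), 729 to 2814 in females (3 to 5), 0 to 51 for the interaction (0 to 1) and 1117 to 2196 by sex (0 to 2). At an unadjusted p below 0.05 the 3 fits with 0 interaction calls, without AKP male replicate 2, AKP::Keap1 female replicate 1 or AKP::Keap1 female replicate 2, held 3297, 3036 and 3633 genes.

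Sign changes touched only uncalled values. The genotype difference of Slc3a2 was -0.24 with the median shift and -0.04 with normexp, and that of Cth 0.10 without scaling. In males Gss was -0.13 with the median shift, and in females Slc3a2 was -0.01 with quantile normalization and -0.10 with the median shift. Interactions were -0.14 for Slc3a2 and -0.19 for Gss with quantile normalization, 0.05 for Gsr with the median shift, and -0.36 for Slc3a2, -0.38 for Gclm and -0.38 for Gss without scaling. By sex, Ggt1 was 0.13 with normexp and 0.32 with dim signals raised to the lowest signal well above background, which was added after seeing the data, and Cbs was -0.03 without scaling. Leaving out 1 liver gave -0.07 to 0.09 for Slc3a2 and -0.52 to 0.10 for Cth by genotype, and -0.14 to 0.19 for Slc3a2 and -0.42 to 0.82 for Cth in females. It gave interactions of -0.14 to 0.19 for Slc3a2, -0.29 to 0.32 for Gclm, -0.21 to 0.24 for Gss and -1.04 to 0.17 for Slc7a11.

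Replicate numbers are only numbers here: deviations of the mice numbered 1 correlated at -0.16 to 0.12 over 6 pairs of groups. With a replicate block, genotype calls were 5641 (5 of the 9 genes), 3775 in males (5), 2949 in females (4), 59 for the interaction (0, with 2 at an unadjusted p below 0.05) and 2676 by sex (1). Levels of Slc7a11 and Ggt1 in AKP livers are limited by signal over background.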
